A study of Mus musculus with 3 samples.

Results

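The AP-1 and Egr immediate early factors are the 10 transcription factor genes Fos, Fosb, Fosl1 and Fosl2 (the Fos family), Jun, Junb and Jund (the Jun family), and Egr1, Egr2 and Egr3 (the Egr family). They were taken by name, and each name was found in 1 row of the deposited tables. The 10 members are thus 10 of 47725 genes. The members and the gene lists below were chosen with earlier results of these data known. Their shares beside those over all genes are therefore descriptions only. RNA was sequenced from 3 mouse cultures, with 1 library for each embryonic stem cell line. The WT line is wild type, BM carries a mutation of Barhl1, a homeobox gene of inner ear hair cells, and BEM carries a mutation of an E-box site called E3, an E-box being the DNA element that bHLH factors such as Atoh1 recognise. The kind of mutation in BM, the number of clones behind each line and the genetic background are not stated in the labels. In all 3 groups, otic progenitors, from which inner ear cells arise, were dissociated and plated on growth-arrested stromal cells from the chicken embryo utricle, and were sampled at culture day 9. Retinoic acid (1 µM) and EGF (25 ng/ml) were in the medium of every culture, so no group was free of either agent. The time from the last medium change to lysis is not stated in the labels.

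Immediate early genes are transcribed within minutes of a signal without new protein being made. Growth factors such as EGF act through their receptor, RAS and the kinase ERK, which activates Elk factors bound with SRF at CArG boxes, while CREB acts at the cAMP response element (CRE). Fos proteins bind DNA only as dimers with Jun proteins, and these AP-1 dimers recognise the TGANTCA site. Jun proteins can also pair with each other. Egr proteins are zinc finger factors that bind GC-rich sites, and Nab1 and Nab2 act as their corepressors. Fos, Junb, Egr1 and Egr3 are textbook genes of the fast and short-lived response. Jund is usually expressed steadily, and Fosl1 and Fosl2 are usually late and longer-lived members. Cell dissociation and heat also induce many of these genes.

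The libraries held 21555823 reads in WT, 20111794 in BM and 23813123 in BEM, recovered from the deposited FPKM (reads scaled by gene length and library total). Barhl1 was at 126 FPKM (WT), 95.1 FPKM (BM) and 0.011 FPKM (BEM). Without a stated mutation type for BM, this level does not check the BM label. The 12875 genes whose mean over the 3 libraries reached 1 FPKM are called measured. This mean holds 1 WT library beside both mutant libraries. A gene found mainly in WT therefore passes it less easily than a gene found in both BM and BEM. Differences are log2 ratios of FPKM plus 0.5, and a gene is called 2-fold higher or lower where this ratio reaches 1 or -1. With 1 library per line there is no test and no replicate check. The 95% intervals given with folds cover counting error only, so they compare these libraries and not the lines. The WT library stood apart from the other pair: 1356 measured genes (10.5%) were 2-fold higher and 1970 (15.3%) 2-fold lower in BM relative to WT, and 1372 (10.7%) were higher and 1967 (15.3%) lower in BEM than in WT. Between BEM and BM, 59 genes (0.458%) were 2-fold higher and 42 (0.326%) 2-fold lower in BEM. BM and BEM were set against the same WT library, so their differences from it are not independent of each other. Of 15 hair cell markers, 5 were measured. Atoh1, the hair cell determination factor, stood at 270.2 FPKM in WT against 237 in BM and 241 in BEM, but Pou4f3 stayed under 0.1 FPKM in all 3, and Pvalb and Tmc1 were at 0 in all 3. Of the measured hair cell markers, the myosin gene Myo7a was 2-fold higher in BM and BEM, at 0.704 FPKM in WT against 9.79 and 9.83, and the actin-bundling gene Espn was 2-fold lower, at 2.08, 0.565 and 0.503 FPKM; the other 3 were within 2-fold.

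Marker levels of other cell types differed between WT and the other pair of libraries. Macrophage markers summed to 19.7 FPKM in WT against 2021 in BM and 2069 in BEM, with 3 of 15 at 1 FPKM or more in WT and 15 of 15 in the others, and the complement gene C1qa was at 0 in WT. Smooth muscle markers summed to 125 FPKM in WT against 3773 in BM and 3814 in BEM, with none at 0. Of the 9 measured, 7 were 2-fold higher in both, Acta2 and Tagln making up most of the sum in BM and BEM, and 1, Smtn, was 2-fold lower at 41.9, 17.6 and 16.4 FPKM. Fibroblast markers summed to 2583, 5930 and 5807 FPKM, with none of 11 at 0; 6 were 2-fold higher in both, led in level by Col1a1 (1009, 2645 and 2554 FPKM), and the other 5 were within 2-fold, among them Pdgfra, which was lower at 51.0, 25.9 and 26.0 FPKM. Epithelium markers summed to 41.3, 8.20 and 8.40 FPKM, and 4 of 8 were measured. Of these, 3 were 2-fold lower in both, led in level by Krt18 (27.2, 3.76 and 3.93 FPKM). Krt19 was within 2-fold and went the other way (2.05, 2.73 and 3.17 FPKM). Cldn7 (0.786 FPKM in WT) was at 0 in BM and Cldn3 (1.18 FPKM in WT) at 0 in BEM, and neither was measured. Neuron markers summed to 15.5, 39.2 and 38.0 FPKM and were mixed. Of the 5 measured, 3 were 2-fold higher in both, among them Gap43 (0.853, 27.4 and 26.7 FPKM), and 1, Nefm, was lower (6.71, 0.095 and 0.109 FPKM). Nefl (2.55, 0.059 and 0.075 FPKM), Snap25 (1.67, 0 and 0.0062) and Syt1 (1.12, 0.083 and 0.065) were also lower but were not measured. Endothelium markers summed to 10.1, 15.2 and 15.1 FPKM. Of the 3 measured, 1 was 2-fold higher and 1 lower in each. Pluripotency markers, which would mark remaining stem cells, summed to 0.979, 0.213 and 0.461 FPKM, and none of the 7 was measured. In bulk RNA, fewer cells of a type and less RNA per cell cannot be told apart. The part of these markers in any difference below was not tested.

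The members share a compact gene form. Exons and spans are those of 1 principal GENCODE transcript per gene, and other transcripts were not counted. Jun, Junb and Jund have 1 exon each, as do 2.25% of 11433 measured genes. The Egr genes have 2 and the Fos family genes 4. Of the 10 transcripts, 9 span under 10 kb, Fosl2 being the exception at 22042 bases, against 26.0% of those measured genes. Promoter sequence from RefSeq (GRCm38.p6) was available for 7 members, and Fosl1, Egr1 and Egr3 are named only. The windows of Fos, Jun, Junb and Egr2 are shown because Fos and Junb were 2-fold lower in both mutant libraries and Jun and Egr2 were not. Each line gives the 100 bases before the transcription start, 5′ to 3′, with searched motifs in capitals.
Fos, chr12:85473790-85473889 (+): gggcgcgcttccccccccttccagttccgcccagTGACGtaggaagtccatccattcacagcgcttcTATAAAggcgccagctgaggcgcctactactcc
Junb, chr8:84978749-84978848 (-): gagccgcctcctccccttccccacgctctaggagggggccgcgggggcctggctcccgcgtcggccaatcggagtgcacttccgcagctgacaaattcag
Jun, chr4:95052223-95052322 (-): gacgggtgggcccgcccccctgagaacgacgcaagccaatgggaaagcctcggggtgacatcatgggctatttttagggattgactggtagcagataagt
Egr2, chr10:67537769-67537868 (+): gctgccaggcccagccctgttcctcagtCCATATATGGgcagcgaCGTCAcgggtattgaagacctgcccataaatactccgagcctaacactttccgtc

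The capitals in the Fos window are TGACG, the core of the CRE, from -66 to -62, and the TATA box TATAAA from -33 to -28, counted from the base before the start. In the Egr2 window they are a CArG box from -72 to -63 and CGTCA, the CRE core read on the other strand, from -55 to -51. The motifs searched, on both strands of the 250 bases before each start, were the CArG box, the CRE TGACGTCA and its core TGACG, which every full CRE contains, the AP-1 site TGANTCA, the Egr site GCGNGGGCG and TATAAA. Of 32851 promoter windows, 1.47% held a CArG box, 1.55% a full CRE, 17.8% the CRE core, 6.75% an AP-1 site, 4.70% an Egr site and 12.4% a TATAAA. A CArG box was found in 4 of the 5 Egr2 windows, which overlap one another in part, and in no other member's window. The CRE core was found for Fos, Fosb, Junb and Egr2, and the Egr site for Fosb and Fosl2. These are matches of letters, and the absence of a match concerns these 250 bases only.

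AU-rich elements in the 3′ UTR mark many short-lived messages. The Fos 3′ UTR carries the nonamer TTATTTATT, given here with its flanks because it is the class of element for which Fos is the textbook case.
Fos 3′ UTR, chr12:85477103-85477131 (+): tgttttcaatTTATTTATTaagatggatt
The nonamer was present in the 3′ UTR of Fos and Fosl2 and in 7.56% of 11433 measured genes. The pentamer ATTTA occurred at 4.91 per kb in Fos, 4.12 in Junb, 3.24 in Jun, 2.65 in Egr3 and 2.50 in Egr2, with a median of 1.30 over measured genes. The density was 1.88 in Jund, 1.72 in Fosl2, 1.64 in Egr1 and 1.57 in Fosl1, also above that median, and 0.466 in Fosb, below it.

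Egr1, Fos, Junb and Jund were lower in both mutant libraries, by 4.4, 3.20, 2.97 and 2.30-fold in BM and by 4.24, 3.68, 3.36 and 2.45-fold in BEM. Jun and Fosl2 were slightly lower, Egr3 was lower at a low level, Egr2 was low throughout, and Fosl1 was higher. Of the 9 measured members, 4 (44.4%) were 2-fold lower in BM relative to WT and none was 2-fold higher, against 15.3% lower and 10.5% higher over all measured genes. The same 4 were 2-fold lower in BEM, and again none was higher, against 15.3% and 10.7% over all. The median log2 ratio over the 9 was -0.79 in BM and -0.75 in BEM, beside -0.08 and -0.07 over all measured genes. Fosb, with a mean of 0.465 FPKM, was the member that was not measured. Over all 10, the counting interval of the ratio lay below 1 for 7 members, above 1 for 1 (Fosl1) and held 1 for 2 (Fosb and Egr2) in BM. In BEM it lay below 1 for 8, above 1 for Fosl1 and held 1 for Egr2. The share of all measured genes whose interval excluded 1 is not given, so these counts have no background beside them. At this depth even the interval of Fosl2, 1.22-fold lower in BM, excluded 1.

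**Figure D1:**
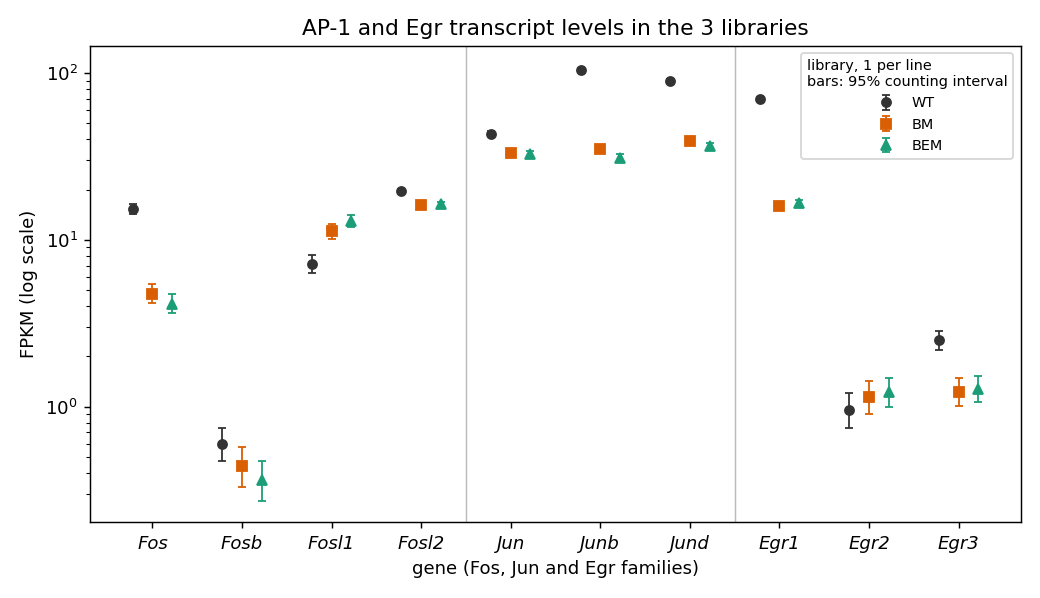
FPKM on a log axis for the 10 members (x axis, by family) in the WT, BM and BEM libraries, 1 point per library, with 95% counting intervals as bars, which are often smaller than the symbols. The WT point lies clearly above the other pair for Fos, Junb, Jund, Egr1 and Egr3, and below it for Fosl1.

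**Figure D2:**
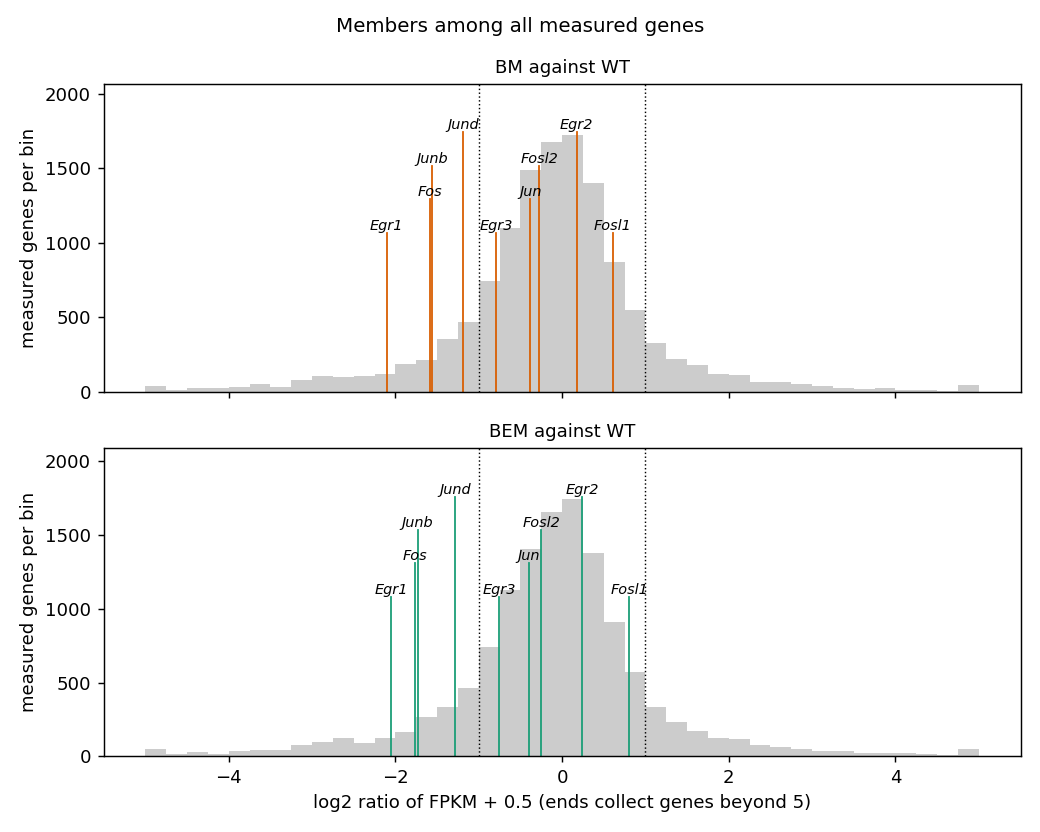
Number of measured genes (y axis) by log2 ratio of FPKM + 0.5 against WT (x axis, bins in grey, end bins collecting genes beyond 5 in either direction), for BM (top) and BEM (bottom); coloured lines mark the 9 measured members and dotted lines mark 2-fold. Egr1, Fos, Junb and Jund lie left of the lower 2-fold line in both panels, and the other 5 lie between the lines.

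In the Fos family, Fos alone was 2-fold lower, and Fosl1 was higher in both mutant libraries. Fos (ENSMUSG00000021250, chr12:85473890-85477273, plus strand), the fast and transient partner of Jun proteins, stood at 15.2 FPKM (772 reads) in WT against 4.76 (225 reads) in BM and 4.14 (232 reads) in BEM. The WT library was high and the other pair close together. Fos was thus 3.20-fold lower in BM (95% counting interval 2.76 to 3.73) and 3.68-fold lower in BEM (3.17 to 4.28). Of measured genes, 8.35% had a lower log2 ratio than Fos in BM, and 7.0% in BEM. Its level exceeded that of 70.9% of measured genes in WT, 39.5% in BM and 35.6% in BEM.

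Fosl1 (ENSMUSG00000024912, chr19:5447547-5455946, plus strand), which encodes FRA1, a member without the transactivation domain of Fos, was higher in BM and BEM. It stood at 7.20 FPKM (265 reads) in WT against 11.2 (385 reads) in BM and 13.0 (527 reads) in BEM. It was 1.56-fold higher in BM (1.33 to 1.83) and 1.80-fold higher in BEM (1.55 to 2.09), short of 2-fold. Fosl1 overlaps Ccdc85b on the opposite strand, which stood at 36.9, 41.1 and 37.4 FPKM; the strand setting of the counting is not known here, so reads from the overlap cannot be told apart. Fosl2 (ENSMUSG00000029135, chr5:32135801-32157842, plus strand), which encodes FRA2, stood at 19.6, 16.1 and 16.4 FPKM with 4091, 3136 and 3778 reads. Fosl2 was 1.22-fold lower in BM (1.16 to 1.28) and 1.20-fold lower in BEM (1.14 to 1.25). Fosb (ENSMUSG00000003545, chr7:19302696-19310051, minus strand), which is best known for induction in neurons, was near the bottom in every library at 0.594 FPKM (80 reads) in WT against 0.438 (55 reads) in BM and 0.363 (54 reads) in BEM. Its fold was 1.36 lower in BM with an interval that held 1 (0.951 to 1.95), so no difference was detectable at this depth, and 1.64 lower in BEM (1.14 to 2.36).

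The Jun family divided into Junb and Jund, which were lower, and Jun, which differed little. Junb (ENSMUSG00000052837, chr8:84974484-84978718, minus strand), a weaker activator than Jun that can oppose it, was the highest member in WT by deposited FPKM. It stood at 105 FPKM (4145 reads) in WT, 35.2 (1301 reads) in BM and 31.1 (1361 reads) in BEM. Junb was 2.97-fold lower in BM (2.79 to 3.17) and 3.36-fold lower in BEM (3.16 to 3.58). Its level exceeded that of 96.8% of measured genes in WT, 88.5% in BM and 86.7% in BEM. Junb overlaps Prdx2 on the opposite strand, which stood at 58.1, 49.8 and 51.1 FPKM.

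Jund (ENSMUSG00000071076, chr8:70698949-70700616, plus strand), which restrains growth in several cell types, stood at 89.7 FPKM (5562 reads) in WT against 39.0 (2259 reads) in BM and 36.6 (2509 reads) in BEM. WT was again the high library, and Jund was 2.30-fold lower in BM (2.19 to 2.41) and 2.45-fold lower in BEM (2.34 to 2.57). The FPKM of Jund fitted whole reads at a length of 2878 bases against 1668 in GENCODE, which bears on its level beside other genes but not on its folds. Jun (ENSMUSG00000052684, chr4:95049034-95052222, minus strand), the main partner of Fos and a target of its own dimers, stood at 43.2 FPKM (2967 reads) in WT against 33.0 (2115 reads) in BM and 32.6 (2476 reads) in BEM. Jun was 1.31-fold lower in BM (1.24 to 1.38) and 1.32-fold lower in BEM (1.25 to 1.40). Its antisense transcript Junos stayed between 0.180 and 0.531 FPKM.

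Egr1 (ENSMUSG00000038418, chromosome 18), a fast target of ERK and SRF, carried nearly all of the Egr family's RNA and showed the largest difference of the 10 members. It stood at 70.2 FPKM (6786 reads) in WT against 16.0 (1439 reads) in BM and 16.5 (1766 reads) in BEM. Egr1 was 4.4-fold lower in BM (4.16 to 4.66) and 4.24-fold lower in BEM (4.03 to 4.48), and 5.41% and 5.50% of measured genes had a lower ratio. Egr3 (ENSMUSG00000033730, chr14:70077203-70082614, plus strand), known for its parts in muscle spindles and in T cell tolerance, stood at 2.49 FPKM in WT against 1.23 in BM and 1.28 in BEM. The ratio of its FPKM was 2.03-fold lower in BM (1.60 to 2.58) and 1.95-fold lower in BEM (1.57 to 2.44). With the pseudocount its log2 ratios were -0.79 and -0.75, short of 2-fold. More than 1 gene length gave whole reads for Egr3, so its intervals are less certain. Egr2 (ENSMUSG00000037868, chr10:67535475-67542188, plus strand), known for its part in the hindbrain and in myelination, stood at 0.956 FPKM (70 reads), 1.14 (78 reads) and 1.22 (99 reads). Its ratio was 1.19-fold higher in BM (0.854 to 1.67) and 1.28-fold higher in BEM (0.933 to 1.76), and both intervals held 1, so no difference was detectable at this depth.

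The order of the members by FPKM differed between WT and the other libraries. In WT it ran Junb, Jund, Egr1, Jun, Fosl2, Fos, Fosl1, Egr3, Egr2 and Fosb, and the counting intervals of all neighbours were apart. In BM it ran Jund, Junb, Jun, Fosl2, Egr1, Fosl1, Fos, Egr3, Egr2 and Fosb. There the intervals of Junb and Jun, of Fosl2 and Egr1, and of Egr3 and Egr2 overlapped. BEM had the order of BM except within the overlapping neighbours Jun and Junb, and Egr1 and Fosl2, which stood the other way round.

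The summed RNA of the 7 AP-1 genes was 280.0 FPKM in WT against 139.7 in BM and 134 in BEM. Most of this difference lay in the Jun family, which summed to 237, 107 and 100.3 FPKM, whereas the Fos family summed to 42.6, 32.5 and 33.9. Within the Fos family, Fos made up 35.7% in WT, 14.6% in BM and 12.2% in BEM. Fosl1 made up 16.9%, 34.5% and 38.3%, and Fosl2 kept the largest share at 46.0%, 49.5% and 48.4%. Fosl1 RNA was thus at 0.473 times the FPKM of Fos in WT, and at 2.36 and 3.13 times it in BM and BEM. Within the Jun family, Junb made up 44.0% in WT, 32.8% in BM and 31.0% in BEM, Jun 18.2%, 30.8% and 32.5%, and Jund 37.8%, 36.4% and 36.5%. The Jun family exceeded the Fos family 5.57 times in WT, 3.30 times in BM and 2.96 times in BEM. These sums and shares are of RNA and not of protein or of dimers, and both depend on the gene lengths behind the FPKM. Egr1 made up 95.3% of Egr family RNA in WT, 87.1% in BM and 86.9% in BEM.

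**Figure D3:**
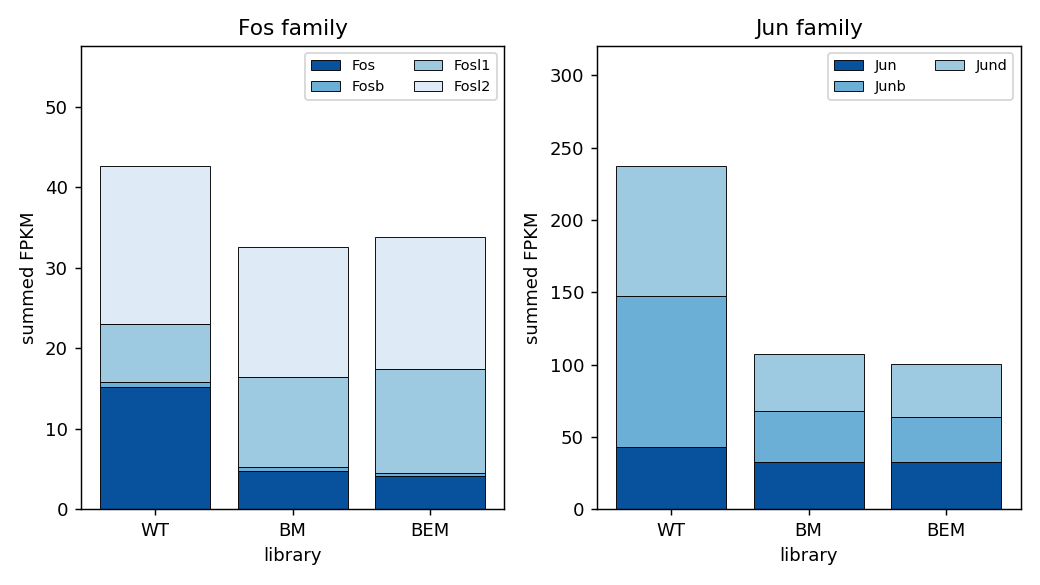
Summed FPKM (y axis, from 0) of the Fos family (left) and the Jun family (right) in the 3 libraries, with each bar divided by gene. The Fos block is large in WT and small in BM and BEM while the Fosl1 block is larger there, and the Junb and Jund blocks account for most of the difference between the Jun family sums of 237 (WT), 107 (BM) and 100.3 FPKM (BEM).

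Between BEM and BM, which leaves the WT library out, no measured member was 2-fold higher (0.458% of all measured genes) or lower (0.326%), and the largest fold between them among all 10 was 1.21. The counting interval held 1 for 7 members, again without a share over all measured genes beside it. Junb was 1.13-fold lower (1.05 to 1.22) and Jund 1.07-fold lower (1.01 to 1.13) in BEM than in BM, and Fosl1 was 1.16-fold higher (1.01 to 1.32). The median log2 ratio over the 9 measured members was 0.02, beside 0.0019 over all measured genes. No measured gene of the other lists below was 2-fold apart between BEM and BM. In the authors' deposited table, Egr1 had p-values of 0.0403 in BM and 0.0448 in BEM against WT, the only members' p-values under 0.05. The lowest FDR of a member in the authors' deposited tables was 0.249 in BM and 0.269 in BEM against WT, and 1 between BEM and BM.

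Other proteins that dimerise with AP-1 factors were mixed. Of 11 measured genes, 3 (27.3%) were 2-fold lower and 1 (9.09%) higher in BM, and 2 (18.2%) lower and 1 higher in BEM. The shares over all measured genes were 15.3% lower in each, and 10.5% (BM) and 10.7% (BEM) higher. Median log2 ratios of the 11 were -0.50 and -0.36. Maff, a small Maf protein, stood at 67.5 FPKM in WT against 6.78 in BM and 7.17 in BEM, and was 9.95-fold lower in BM (8.82 to 11.3). Atf3, a stress-induced partner of Jun, stood at 16.9, 7.02 and 7.23 FPKM, and Batf at 3.30, 1.30 and 2.46. Batf3, which was not measured and so is not in these counts, was also lower, at 2.61, 0.156 and 0.026 FPKM. Jdp2, a repressor that pairs with Jun proteins, was the gene that was higher, at 18.8, 48.8 and 46.0 FPKM. Atf4, the most abundant of the list with 107, 150.4 and 148 FPKM, was less than 2-fold apart. Of the Egr partners, the corepressor Nab2, itself an Egr1 target, stood at 41.2, 26.0 and 24.8 FPKM, and Nab1 at 15.2, 16.8 and 17.5. Wt1, a zinc finger factor with a binding site like that of Egr1, stood at 8.39, 1.52 and 1.53 FPKM, which was 5.50-fold lower in BM (4.72 to 6.45). Egr4 was at 0 in all 3 libraries.

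Many, but not all, other immediate early genes were lower where the members were. Of 34 measured genes, 15 (44.1%) were 2-fold lower and 3 (8.82%) higher in BM, and 17 (50.0%) lower and 3 higher in BEM, against 15.3% lower over all measured genes. The 15 were lower in both, and the median log2 ratios were -0.87 and -1.0. Maff and Atf3, among the 15, are also among the dimer partners above. The list also shares genes with the ERK feedback and SRF lists below, so the lists are not separate sets. Arc, a synaptic immediate early gene, stood at 9.36 FPKM in WT against 0.586 in BM and 0.440 in BEM. Ier3, a survival gene that is also listed with the ERK feedback genes, stood at 120.4, 14.6 and 14.5 FPKM. Sik1, a kinase induced through CREB, stood at 26.7, 3.26 and 3.39 FPKM, which was 8.20-fold lower in BM (7.26 to 9.27) and 7.89-fold lower in BEM (7.07 to 8.83). Zfp36l1, which encodes a protein that binds AU-rich elements, stood at 133, 25.8 and 22.0 FPKM, and Nfkbiz at 38.7, 9.19 and 9.30. The most abundant genes of the list behaved otherwise: Cyr61, a matricellular gene, stood at 219.6, 205 and 197 FPKM, and Ctgf at 72.8, 122 and 122.

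The 3 genes that were 2-fold higher were the Krüppel-like factors Klf4 (7.90, 23.8 and 23.4 FPKM) and Klf6 (21.5, 52.3 and 51.4 FPKM), and the stress gene Gadd45g (36.0, 84.6 and 85.2 FPKM). Dusp1, the phosphatase that ends MAP kinase signals, stood at 9.55, 10.7 and 9.93 FPKM, Nr4a1 at 11.3, 14.7 and 13.7, and Zfp36 at 8.32, 8.15 and 6.99. These 6 genes were named after their values were seen, the latter 3 because they are often induced together with Fos and Egr1.

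**Figure D4:**
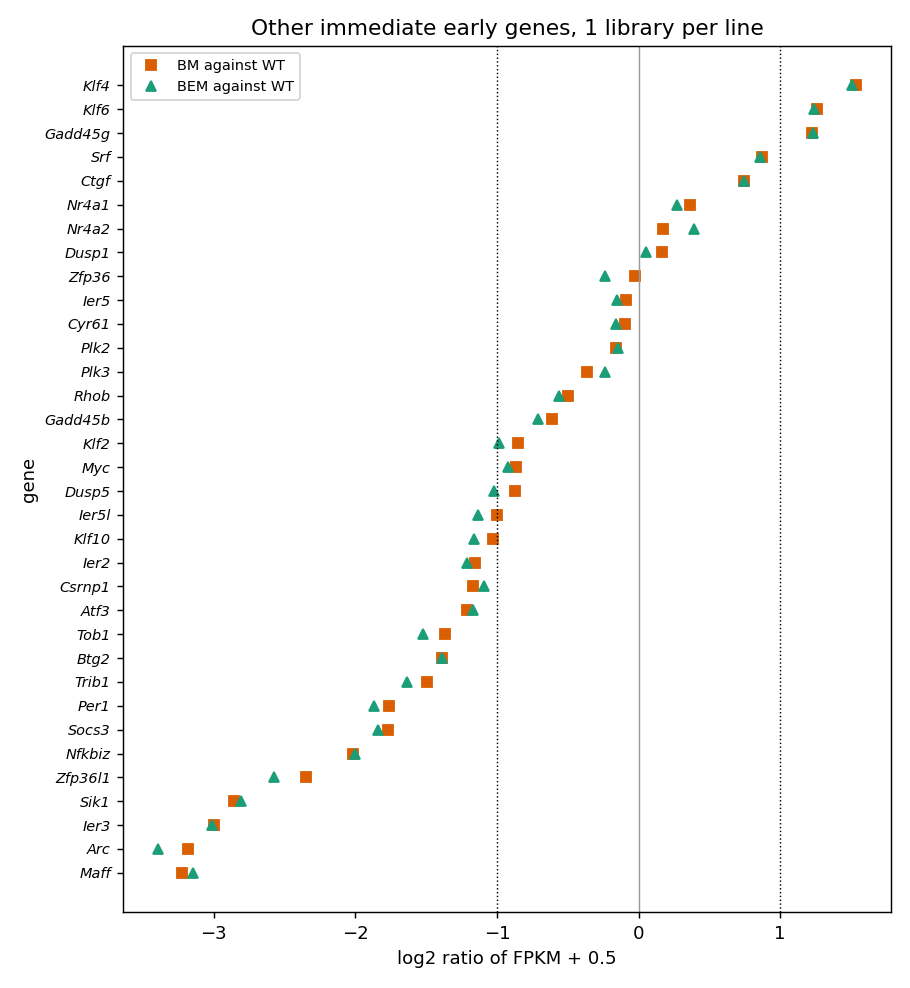
Log2 ratio of FPKM + 0.5 against WT (x axis) for the 34 measured immediate early genes outside the Fos, Jun and Egr families (y axis), with a square for BM and a triangle for BEM and dotted lines at 2-fold. Most genes lie left of 0, from Maff at -3.22 in BM, while Klf4, Klf6 and Gadd45g lie right of the upper 2-fold line, and the square and triangle of a gene lie close together.

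Most of the listed ERK feedback genes, which are known to follow and limit ERK signalling, were 2-fold lower. Of 15 measured, 11 (73.3%) were 2-fold lower in BM and 12 (80.0%) in BEM, against 15.3% in each over all measured genes. None was higher, and the median log2 ratios were -1.75 and -1.74. The list was chosen with earlier results of these data known, and ERK activity itself was not tested. Spry4, a Sprouty inhibitor of RAS signalling, stood at 41.2 FPKM in WT against 3.62 in BM and 3.85 in BEM. Dusp6, the phosphatase of ERK, stood at 71.8, 12.0 and 11.5 FPKM, which was 5.97-fold lower in BM (5.50 to 6.48) and 6.24-fold lower in BEM (5.77 to 6.74). Etv4 and Etv1, ETS factors downstream of FGF and ERK, stood at 35.1, 5.49 and 4.98 FPKM and at 10.1, 1.49 and 1.62 FPKM. Phlda1 stood at 22.3, 3.38 and 3.52 FPKM and Spry2 at 75.2, 22.0 and 22.2.

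Of 21 measured upstream receptors, RAS proteins and kinases, 5 were 2-fold lower and 1 higher in BM, and 4 lower and 1 higher in BEM. Beside these counts, 15.3% of all measured genes were lower in each, and 10.5% (BM) and 10.7% (BEM) higher. The median log2 ratios of the 21 were -0.09 and -0.10, close to the -0.08 and -0.07 over all measured genes. The genes named next are mostly those with the largest differences and do not stand for the list. Egfr, the receptor of the EGF in the medium, stood at 35.7 FPKM in WT against 14.3 in BM and 14.2 in BEM, which was 2.49-fold lower in BM (2.40 to 2.60) and 2.51-fold lower in BEM (2.42 to 2.61). Mapk9, a JUN kinase, stood at 25.0, 10.6 and 10.5 FPKM, Mapk11, a p38 kinase, at 12.0, 3.95 and 3.34, and Rps6ka1, a kinase activated by ERK, at 10.5, 3.36 and 3.12. Rps6ka5, a kinase that phosphorylates CREB and histone H3, stood at 2.44, 0.824 and 1.04 FPKM with log2 ratios of -1.15 in BM and -0.94 in BEM. Hras was the gene that was higher, at 6.35, 17.3 and 18.2 FPKM. Mapk3, which encodes ERK1, stood at 53.7, 49.3 and 47.9 FPKM, and Map2k1, which encodes the kinase MEK1, at 27.9, 40.9 and 41.2.

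SRF serves the ERK branch, with Elk factors, and the actin branch, with the cofactors Mkl1 and Mkl2. Of 7 measured genes for SRF and its cofactors none was 2-fold apart from WT in either library. Over all measured genes, 15.3% were lower in each, and 10.5% (BM) and 10.7% (BEM) higher. Srf stood at 13.0, 24.3 and 24.0 FPKM, Mkl1 at 20.7, 12.1 and 11.2, and Elk4 at 7.78, 4.52 and 4.79. Most of the 18 actin cytoskeleton targets of SRF were higher, unlike Fos and Egr1, with 15 (83.3%) 2-fold higher in BM and 14 (77.8%) in BEM, none lower, and medians of 2.27 and 2.25. Acta2 stood at 37.0 FPKM in WT against 2576 in BM and 2578 in BEM, and Cnn1 at 0.392, 43.8 and 43.5. Actg1, among the most abundant, stood at 813, 1078 and 1061 FPKM, within 2-fold of WT. Several of these genes, Acta2, Actg2, Cnn1, Tagln, Myh11 and Lmod1 among them, are also the smooth muscle markers that were higher in BM and BEM, and the part of those cells in the result was not tested.

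**Figure D5:**
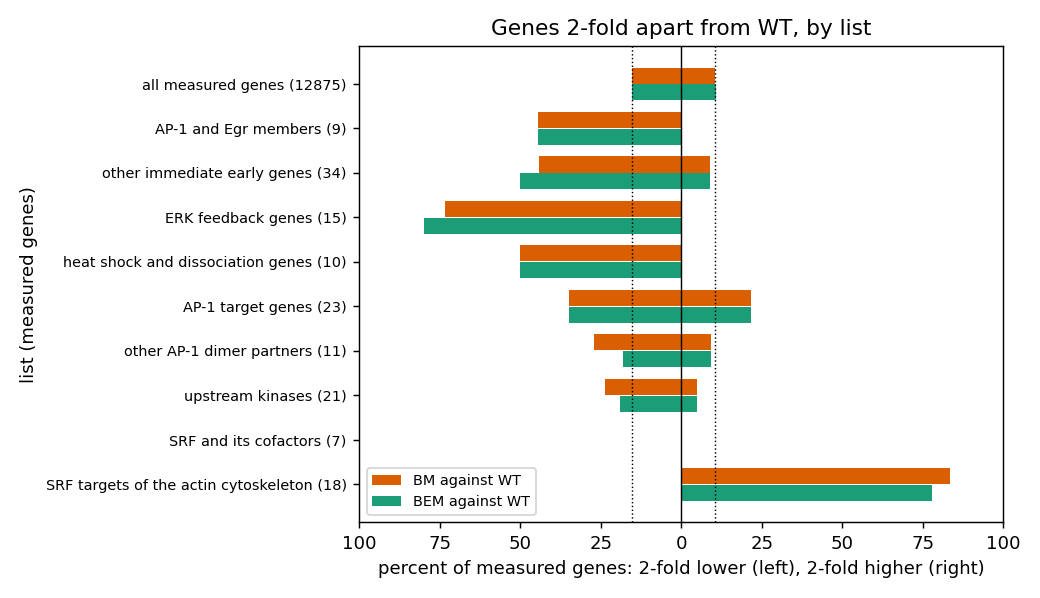
Percent of the measured genes of each list (y axis, number measured in parentheses) that were 2-fold lower (left of 0) or 2-fold higher (right of 0) than WT in BM and in BEM; dotted lines mark the shares over all measured genes in BM, 15.3% lower and 10.5% higher. ERK feedback genes reach 73.3% and 80.0% lower, the 9 measured members 44.4% lower in both, and the actin cytoskeleton targets of SRF 83.3% and 77.8% higher.

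Genes known as AP-1 targets were found on both sides of WT. Of 23 measured, 8 (34.8%) were 2-fold lower and 5 (21.7%) higher in both BM and BEM, with medians of 0.05 and 0.06. All measured genes had shares of 15.3% lower in each, and 10.5% (BM) and 10.7% (BEM) higher. Mmp10, a stromelysin, stood at 18 FPKM in WT against 0.752 in BM and 0.781 in BEM, and Areg, an EGF receptor ligand, at 18.3, 0.982 and 0.864. Hmox1, haem oxygenase, stood at 587, 77.2 and 74.8 FPKM, and the cytokine Lif at 20.7, 2.91 and 3.35. In the other direction, Vim stood at 223, 935 and 919 FPKM and Cd44 at 11.1, 45.8 and 46.5. Spp1, among the most abundant of the list, stood at 264, 424 and 419.7 FPKM. Vim and Cd44 are also abundant in macrophages, of whose markers 14 of 15 were 2-fold higher in BM and in BEM, and in fibroblasts, of whose markers 6 of 11 were; the part of these cells was not tested.

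Genes of the heat shock response, which cell handling also induces, were lower as well. Of 10 measured, 5 (50.0%) were 2-fold lower in both BM and BEM, against 15.3% in each over all measured genes. None was higher, and the medians were -1.10 and -1.07. Hspb1 stood at 581 FPKM in WT against 62.1 in BM and 61.1 in BEM. Hspa1b stood at 354, 27.3 and 26.4 FPKM and Hspa1a at 122, 17.6 and 17.4; this pair is nearly identical in sequence, so the division of reads between them is uncertain. Hsp90ab1, the most abundant of the list, stood at 779, 527 and 522 FPKM. The part of handling in the members' levels was not tested.

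Among the 5036 genes averaging 10 FPKM or more, the 3 nearest to Fos by distance over the differences of BM and BEM from WT were C77080, Dbp and Masp1, at distances of 0.044, 0.057 and 0.068 on the log2 scale. Dbp, a clock-controlled transcription factor, stood at 19.3 FPKM in WT against 6.07 in BM and 5.13 in BEM, beside 15.2, 4.76 and 4.14 for Fos. The 3 nearest to Egr1 were Tmem200b, Trib2 and Itm2a, at distances of 0.015, 0.032 and 0.036. Itm2a, a membrane protein gene, stood at 211 FPKM in WT against 49.9 in BM and 51.1 in BEM, beside 70.2, 16.0 and 16.5 for Egr1. The likeness was measured over 3 libraries that give 2 differences, both of which use the WT library.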

How the data were processed

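RNA from 3 cultures was sequenced by Illumina after oligo-dT enrichment and TruSeq library preparation, per the labels. The submitters' processing notes name TopHat2, HTSeq, edgeR and GRCm38, without versions. Whether chicken reads were set apart, and the strand setting, are not given in the labels. The deposited expression values were FPKM for 47725 genes, per the file headers. The authors' log2 ratios, p-values and FDR for each pair of libraries stood in the same deposited tables; the labels do not say how these were obtained without replicates.

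Log2 ratios were computed from FPKM + 0.5, without further scaling. Genes averaging at least 1 FPKM were measured, and ratios of at least 2-fold were counted; no test was run. Whole reads were recovered by finding the gene length and library total that made all 3 FPKM values whole within 0.0001 reads, which succeeded for 12865 of 12875 measured genes, 72.1% of the measured genes at the GENCODE vM21 length. Of the members, 6 fitted the annotated length, and Fosl1, Junb, Jund and Egr3 another. Exact Clopper-Pearson 95% intervals of read ratios cover counting error only, and not variation between cultures. They take each read as a separate molecule, so PCR copies would make them too narrow. The recovery was tested on simulated data in which every gene had its annotated length. The search for another length, used for Fosl1, Junb, Jund and Egr3, was therefore not tested. Symbols and positions came from GENCODE, in which 47306 identifiers were found, and sequences from RefSeq and GENCODE. The members and gene lists were chosen with earlier results of these data known. Beside the 10 members, genes were named from up to 6 per list with the largest difference between WT and the mean of BM and BEM, the 2 of highest mean, and the 3 genes nearest to Fos and to Egr1; not every gene the rule allows is named. Pou4f3, Pvalb, Tmc1, Smtn, Pdgfra, Cldn3, Cldn7, Nefl, Snap25, Syt1, Batf3 and Egr4 fall outside it and were named after their values were seen. Alternatives were pseudocounts of 0.05 and 5, no filter or a mean of 10 FPKM, upper quartile and median-of-ratios scaling, a 4-fold threshold, a counting interval that excludes 1 and the authors' ratios. Python 3.11.15, numpy 2.4.6, pandas 2.3.3, scipy 1.17.1 and matplotlib 3.10.9 were used.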

Additional observations from a re-analysis of the deposited data

How the results depend on the processing

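No member's log2 ratio changed sign under any of the pseudocounts, scalings or the authors' deposited ratios. At a 4-fold threshold, 1 member (Egr1) instead of 4 was lower in each of BM and BEM against WT. A mean of at least 10 FPKM left 3, because Fos did not pass it. A pseudocount of 5 took 5 members' ratios in BM and 6 in BEM outside their counting intervals, upper quartile scaling 5 and 5, and median-of-ratios scaling 4 and 2.

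Over all measured genes, BM against WT gave 529 higher and 822 lower with a pseudocount of 5, 525 and 561 at a mean of 10 FPKM, 504 and 742 at 4-fold, and 3036 lower without a filter. BEM against WT gave 538 and 832, 529 and 557, 507 and 745, and 2976 lower. BEM against BM gave 101 higher and 92 lower with a pseudocount of 0.05, 0 and 1 with 5, 198 and 171 without a filter, 0 and 3 at 10 FPKM, 9 and 8 at 4-fold, 6 and 8 with the counting interval, and 16 and 10 by the authors' deposited ratios; the cause was not tested. Upper quartile scaling moved the median of measured genes in BM against WT from -0.08 to 0.0089. Depth limited Fosb and Egr2, with 54 to 99 reads per library. No paired analysis was possible because each line has 1 library.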
